A study of Mus musculus with 12 samples.

Results

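Interferon-stimulated genes are genes whose transcription rises when interferon binds its receptor, and 39 of them were followed here in heart and gastrocnemius of mice with a growing tumour. The genes were chosen by name, and 38 of the 39 had a row among the 19356 named genes of the arrays. Isg15, which encodes a ubiquitin-like protein, had none under its own or an older name. Where several array rows carried the same gene, the row with the highest mean over all 12 arrays was kept, which applied to Ifitm1 among others.

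The tumour was C26, a mouse colon carcinoma line widely used as a model of cancer cachexia, in which a tumour at a distance makes muscle waste. C26 cells were injected subcutaneously into the flank of Balb/c-DBAj hybrid mice aged 10 to 11 weeks, and non-tumour-bearing (NTB) mice of the same strain and age received 100 µl of the RPMI medium with antibiotics instead. The whole gastrocnemius, a calf muscle, and the whole heart came from different cohorts, and the labels name no animal that gave both tissues. There were 4 groups of 3 arrays (C26 gastrocnemius, NTB gastrocnemius, C26 heart and NTB heart), which the submitters call biological replicates. No engineered allele and no time since inoculation is used here, and neither is tumour or body weight. Each array was an Affymetrix MoGene-1_0-st-v1, which reads the abundance of a transcript as the brightness of its probes. Values are log2 expression, so that a difference of 1 is a doubling.

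Interferons are signalling proteins that cells release on meeting a virus or another danger signal. Type I interferons (alpha and beta) act through a receptor on nearly every cell and drive a complex that holds Stat2 and Irf9 onto a promoter element called ISRE, while type II interferon (gamma) acts through an element called GAS. The genes that follow make cells hard to infect, raise the presentation of peptides to T cells and attract lymphocytes, and many of them keep a low constant level in resting tissue.

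Promoter sequences of the genes that carry the comparisons below show how these elements sit. They are shown because Ifitm1, Ifitm2 and Ifitm3 were the members that were higher in C26 mice in gastrocnemius, while Ifit1 and Ifit3, with textbook ISRE letters, and Irf1, with GAS letters, were not. Each is RefSeq sequence of build GRCm38.p6, written 5′ to 3′ along the gene's own strand and ending just before the start of transcription, except that of Ifitm3, which runs 30 bases past it. Capitals mark matches to the ISRE core or to GAS on either strand. In Ifitm3 the GAS letters overlap the downstream ISRE core.
Ifitm1: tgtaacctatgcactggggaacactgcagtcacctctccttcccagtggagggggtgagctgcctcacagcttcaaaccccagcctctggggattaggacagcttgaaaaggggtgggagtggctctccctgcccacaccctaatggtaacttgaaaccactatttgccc
Ifitm2: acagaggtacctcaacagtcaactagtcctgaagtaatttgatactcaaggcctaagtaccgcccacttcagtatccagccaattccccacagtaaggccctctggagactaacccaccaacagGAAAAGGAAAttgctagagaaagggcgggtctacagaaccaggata
Ifitm3: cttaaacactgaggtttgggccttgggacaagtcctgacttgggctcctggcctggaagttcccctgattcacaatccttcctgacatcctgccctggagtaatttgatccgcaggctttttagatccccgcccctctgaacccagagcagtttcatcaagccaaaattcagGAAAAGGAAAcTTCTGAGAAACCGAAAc
Ifit1: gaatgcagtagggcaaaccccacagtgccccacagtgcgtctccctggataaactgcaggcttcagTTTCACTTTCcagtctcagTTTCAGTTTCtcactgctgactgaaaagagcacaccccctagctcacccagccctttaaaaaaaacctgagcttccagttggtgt
Ifit3: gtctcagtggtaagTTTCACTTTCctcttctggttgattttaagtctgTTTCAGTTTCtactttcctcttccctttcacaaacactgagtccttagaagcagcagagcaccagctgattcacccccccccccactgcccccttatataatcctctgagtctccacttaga
Irf1: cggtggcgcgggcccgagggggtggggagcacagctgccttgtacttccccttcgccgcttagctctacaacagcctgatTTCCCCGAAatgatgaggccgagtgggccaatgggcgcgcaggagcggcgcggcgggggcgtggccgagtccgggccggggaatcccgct
The Ifitm1 window is chr7:140967906-140968075 on the plus strand, that of Ifitm2 is chr7:140955962-140956131 on the minus strand, and that of Ifitm3 is chr7:141010715-141010914 on the minus strand. The Ifit1 window is chr19:34640719-34640888 and that of Ifit3 is chr19:34583359-34583528, both on the plus strand. The Irf1 window is chr11:53769844-53770013 on the plus strand. The mice were hybrids of other strains, so their own letters at these places may differ.

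The ISRE core was searched as GAAANN followed directly by GAAA, and GAS as TTCNNNGAA, on both strands of 300-base windows, 250 before to 50 after the start of transcription. The GAS letters read the same on both strands. Windows were given for 32 of the 39 members, and none for Usp18, Oas2, Mx1, Mx2, Parp9, Parp14 and Tap2. Of the 36 windows of these members, 14 (38.9%) held the ISRE core, against 3.44% of all 32851 windows. GAS letters stood in 9 (25%), against 8.3% of all windows. Ifitm1 held neither within its 300 bases. A match describes letters only and was not tested as a binding site.

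Before the members, the arrays themselves were looked at. Muscle markers fitted the labels, since 9 of 10 cardiac genes were higher and 9 of 9 skeletal fibre genes were lower in NTB heart than in NTB gastrocnemius. C26 gastrocnemius array 3 stood apart from the other gastrocnemius arrays. Its mean over 5 B cell genes was 6.18, against 4.87 to 5.03 on the other 5, and its mean over 12 T and NK cell genes was 5.58, against 4.77 to 4.97. Counts of calls that moved without it, and members whose call did, are therefore given both ways. Changes of sign are given for members shown with all arrays of that muscle. Irf7, Ifi44, Rsad2 and Stat2 also changed sign in gastrocnemius without it, and their values there are given once. Over all genes, the tumour calls of the linear model (limma, adjusted p under 0.05 by Benjamini-Hochberg over 19356 genes, two-sided) numbered 2316 in gastrocnemius and 625 in heart, and without C26 gastrocnemius 3 they numbered 3366 and 1144.

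In gastrocnemius, Ifitm1, Ifitm2 and Ifitm3, which encode membrane proteins that block viral entry, rose in C26 mice, and the rest of the interferon-stimulated genes did not pass the test. Thus 3 of 38 members (7.89%) were called higher and 0 lower. Over all genes 12% were called in gastrocnemius, 6.48% higher and 5.49% lower. The members' share was thus below that of all genes for calls in either direction, and near it for higher calls. Among the other 35 members, which by this count held no call, 2 had an unadjusted p under 0.05 in the same limma fit. The median change over 38 members was -0.01, beside -0.003 over all genes.

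Ifitm1 measured 7.04, 6.93 and 7.36 on the C26 gastrocnemius arrays and 6.56, 6.16 and 6.25 on the NTB gastrocnemius arrays. All 3 C26 arrays lay above all 3 NTB arrays. The difference was 0.78 ± 0.18 (log2, SE), which is 1.72-fold, with an adjusted p of 0.0081. The protein sits at the cell surface and in early endosomes. Ifitm1 also had a dimmer second row on the array, chosen for a check after the values were seen, which gave 0.58 ± 0.14 with an adjusted p of 0.0254 over all transcripts.

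Ifitm2, a relative found in endosomal membranes, measured 8.24, 8.32 and 8.32 in C26 gastrocnemius and 7.89, 8.06 and 7.68 in NTB gastrocnemius. The groups did not overlap. It rose by 0.41 ± 0.12 (SE, 1.33-fold, adjusted p = 0.0323). This call held in 5 of 12 fits that left out an array each. It was lost without NTB gastrocnemius 1 or 3, C26 gastrocnemius 2, any of the NTB hearts, or C26 heart 3, with adjusted p up to 0.138. It was also lost with columns centred on their medians and with each muscle fitted alone, with adjusted p up to 0.235. Without C26 gastrocnemius 3 it was 0.40 (adjusted p = 0.031).

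Ifitm3, best known for holding influenza virus in endosomes, measured 9.98, 10.08 and 9.79 in C26 gastrocnemius and 9.13, 9.85 and 9.001 in NTB gastrocnemius. NTB array 2 lay above C26 array 3, so the groups overlapped. It rose by 0.62 ± 0.17 (SE, 1.54-fold, adjusted p = 0.0297). The call was lost without C26 gastrocnemius 1 or 2 or NTB gastrocnemius 1 or 3, with columns centred on their medians, with each muscle fitted alone and with all transcripts in the adjustment. Its adjusted p reached 0.186 over all settings. Ifitm1, Ifitm2 and Ifitm3 are closely related in sequence, and how far their probes read each other's transcripts was not tested.

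**Figure D1:**
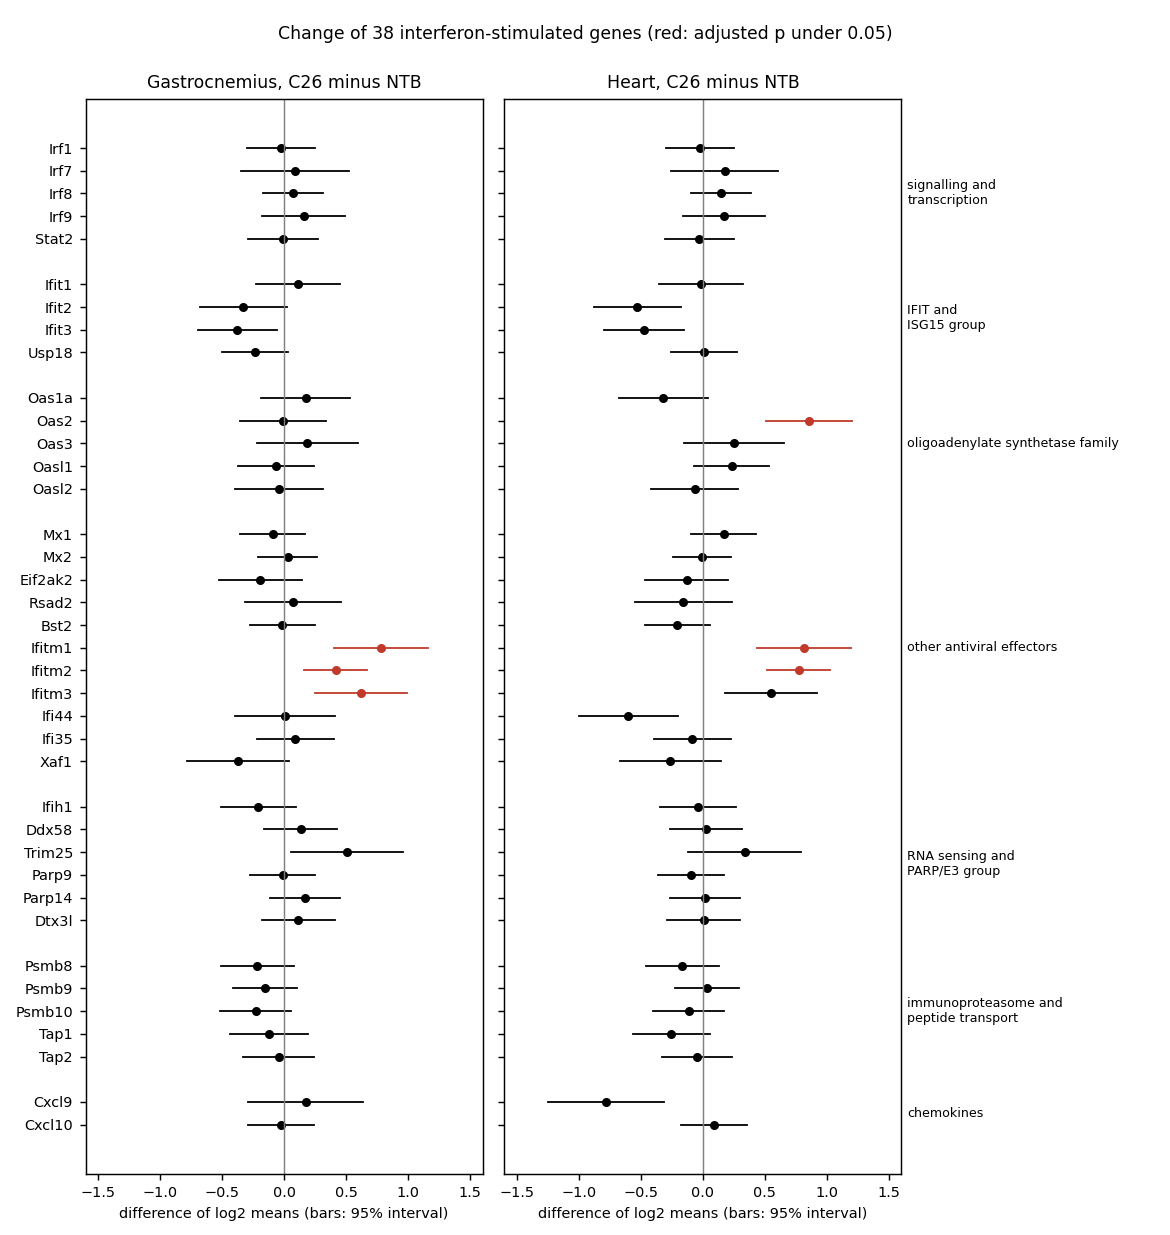
Change of each of 38 interferon-stimulated genes in C26 against NTB mice, gastrocnemius on the left and heart on the right, with role groups listed at the side. Points are differences of log2 means, bars are 95% intervals from the fit, and red marks an adjusted p under 0.05: Ifitm1, Ifitm2 and Ifitm3 in gastrocnemius, and Oas2, Ifitm1 and Ifitm2 in heart.

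The other 8 antiviral effectors of the gastrocnemius were not called. Xaf1, which binds an inhibitor of apoptosis, was the lowest, with 6.18, 5.43 and 5.498 in C26 and 6.22, 6.32 and 5.68 in NTB. The groups overlapped through C26 array 1, and the difference was -0.37 ± 0.19 (SE, adjusted p = 0.293). Without that array Xaf1 was -0.61 with an adjusted p of 0.0225. Mx1 (-0.09) and Mx2 (0.03), GTPases that trap viral nucleocapsids, Rsad2 (0.07), which encodes viperin, and Bst2 (-0.01), which tethers budding virus to the cell, lay near 0. Mx1 is annotated as a transcribed pseudogene in the reference mouse genome. The RNA-activated kinase Eif2ak2 (-0.19), Ifi44 (0.01) and Ifi35 (0.09) were not called either.

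Transcription factors that carry the interferon signal showed no call in gastrocnemius, and limma gave 0 of 5 with an unadjusted p under 0.05. Irf9, the DNA-binding part of the type I complex, was the highest at 0.16 ± 0.16 (SE, adjusted p = 0.694). It measured 6.78, 6.81 and 6.69 in C26 and 6.82, 6.53 and 6.47 in NTB. Irf1, an early target of interferon gamma, was the lowest at -0.03 ± 0.13 (adjusted p = 0.955), with 6.66, 6.60 and 6.57 in C26 and 6.76, 6.81 and 6.34 in NTB. In both genes the groups overlapped. Irf7, the amplifier of interferon alpha production, was at 0.09, Irf8 at 0.07 and Stat2 at -0.01.

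Among the Ifit genes, whose proteins bind viral RNA ends, and Usp18, which strips Isg15 from proteins, 0 of 4 were called in gastrocnemius and 1 had an unadjusted p under 0.05. That gene was Ifit3, with 5.08, 5.23 and 5.37 in C26 and 5.63, 5.74 and 5.45 in NTB. All 3 C26 arrays lay below all NTB arrays, which was true of 9.43% of all genes and of 2.63% of the members. The difference of -0.38 ± 0.15 (SE) had an adjusted p of 0.137. Ifit1, the highest, measured 4.99, 4.85 and 5.08 in C26 and 4.84, 4.91 and 4.83 in NTB, a difference of 0.11 ± 0.16 (adjusted p = 0.811). Ifit2 was at -0.33 and Usp18 at -0.23.

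Active oligoadenylate synthetases make a short messenger that switches on RNase L, an enzyme that cuts viral and cellular RNA. Of the 5 genes of the family followed here, none was called in gastrocnemius by limma, and 0 had an unadjusted p under 0.05. Oas3 had 5.04, 5.30 and 5.92 in C26 and 5.29, 4.97 and 5.44 in NTB. Its difference of 0.19 ± 0.19 (SE, adjusted p = 0.701) rested on array 3, and without that array it was -0.06. Oasl1 measured 6.69, 6.57 and 6.65 in C26 and 6.95, 6.56 and 6.60 in NTB, a difference of -0.07 ± 0.14 (adjusted p = 0.896). Oas1a (0.17), Oas2 (-0.01) and Oasl2 (-0.04) also overlapped between the groups.

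RNA sensors and their partners had 0 of 6 calls in gastrocnemius, and 1 unadjusted p under 0.05. It belonged to Trim25, a ubiquitin ligase that activates the sensor RIG-I, the product of Ddx58. Trim25 measured 7.67, 7.24 and 6.69 in C26 and 6.83, 6.96 and 6.30 in NTB. C26 arrays 1 and 2 lay above all NTB arrays and array 3 did not. The difference was 0.51 ± 0.21 (SE, adjusted p = 0.167). With the replicate number as a block, which treats same-numbered arrays as pairs, the adjusted p was 0.016. Without C26 array 3 the difference was 0.76 with an adjusted p of 0.00698.

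Ifih1, a sensor of long double-stranded RNA, was the lowest of the group at -0.21 ± 0.14 (SE, adjusted p = 0.482). It measured 6.26, 6.09 and 5.74 in C26 and 6.11, 6.24 and 6.36 in NTB, with overlap. Ddx58 was at 0.13. The interferon-inducible partners Parp9 (-0.01) and Dtx3l (0.11), which act as a pair, and the mono-ADP-ribosyl transferase Parp14 (0.17) were not called.

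The immunoproteasome subunits Psmb8, Psmb9 and Psmb10 replace the catalytic subunits of the ordinary proteasome, and Tap1 and Tap2 carry the resulting peptides into the endoplasmic reticulum. All 5 differences were below 0 in gastrocnemius, none was called by limma, and 0 had an unadjusted p under 0.05. Psmb10 was the lowest, with 7.10, 6.84 and 6.78 in C26 and 7.18, 7.28 and 6.95 in NTB, a difference of -0.23 ± 0.13 (SE, adjusted p = 0.372). Tap2 was the nearest to 0, with 7.08, 7.28 and 7.35 in C26 and 7.42, 7.28 and 7.14 in NTB, at -0.05 ± 0.13 (adjusted p = 0.928). In both genes the groups overlapped.

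Cxcl9 and Cxcl10, chemokines that interferon gamma induces and that draw T cells, were not called in gastrocnemius, and 0 had an unadjusted p under 0.05. Cxcl9 measured 5.42, 5.12 and 6.09 in C26 and 5.12, 5.38 and 5.61 in NTB, a difference of 0.17 ± 0.22 (SE, adjusted p = 0.783). The highest value came from array 3, the one with raised lymphocyte markers, and without it the difference was -0.10. Cxcl10 measured 4.70, 4.77 and 4.83 in C26 and 4.63, 4.85 and 4.90 in NTB, at -0.02 ± 0.12 (adjusted p = 0.956).

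The 95% interval of the change lay within 1 log2 unit either side of 0 for 37 of 38 members in gastrocnemius, the exception being Ifitm1. Of the 38 changes, 31 were smaller than 0.25 in size. Some members were dim, with C26 gastrocnemius means of 3.85 (Mx1), 4.47 (Mx2), 4.77 (Cxcl10) and 4.97 (Ifit1). The array medians ran over 5.93 to 6.09, and a small change in such dim genes says little. Without C26 gastrocnemius 3, 4 members were called, all higher: Ifitm1 (0.66, adjusted p = 0.0164), Ifitm2, Ifitm3 (0.70, adjusted p = 0.0137) and Trim25. That fit called 17.4% of all genes in gastrocnemius.

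In heart, Oas2, Ifitm1 and Ifitm2 rose in C26 mice, and several other members lay lower without passing the test. Thus 3 of 38 members (7.89%) were called higher and 0 lower, where 3.23% of all genes were called, 2.14% higher and 1.09% lower. The median change over 38 members was -0.02, beside 0.01 over all genes. An unadjusted p under 0.05 was reached by 8 members. With quantile normalization or with columns centred on their medians, 3 were called higher and 1, Cxcl9, lower. Over all genes these settings called 4.15% and 2.71% in heart.

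Ifitm2 measured 10.54, 10.78 and 10.71 on the C26 heart arrays and 9.94, 9.91 and 9.86 on the NTB heart arrays. The groups lay wide apart against a spread of 0.12 or less (SD) within each. The rise was 0.77 ± 0.12 (SE, 1.71-fold, adjusted p = 0.00139), and it was called in all 12 fits without an array.

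Ifitm1 measured 7.80, 8.14 and 8.27 in C26 heart and 7.07, 7.59 and 7.10 in NTB heart. The lowest C26 array stood just above the highest NTB array. It rose by 0.82 ± 0.18 (SE, 1.76-fold, adjusted p = 0.0174). Without C26 heart 2 or 3, or without NTB heart 1 or 3, the call was lost, with adjusted p up to 0.108. The second row of the gene gave 0.57 (adjusted p = 0.0841 over all transcripts).

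Ifitm3 measured 11.60, 11.84 and 11.77 in C26 heart and 11.21, 11.20 and 11.16 in NTB heart. The groups did not overlap, and the difference was 0.55 ± 0.17 (SE, adjusted p = 0.132). The fit shared its spread among all 4 groups, and in NTB gastrocnemius the SD of Ifitm3 was 0.46, against 0.03 in NTB heart. Fitted on the 6 heart arrays alone, its adjusted p was 0.000197, and it was also called with the replicate block and without NTB gastrocnemius 2.

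Oas2 measured 8.04, 7.84 and 7.94 in C26 heart and 7.18, 6.94 and 7.13 in NTB heart. No C26 array came near the NTB range. It rose by 0.86 ± 0.16 (SE, 1.81-fold, adjusted p = 0.00729), and of the 12 fits without an array only the one without NTB heart 2 lost the call (adjusted p = 0.0547). The rest of the synthetase family was not called, with Oas3 at 0.25, Oasl1 at 0.23, Oasl2 at -0.07 and Oas1a at -0.32. Oas1a, the lowest, had 6.14, 5.84 and 6.21 in C26 and 6.47, 6.29 and 6.38 in NTB, all C26 arrays below NTB (SE 0.17, adjusted p = 0.504).

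**Figure D2:**
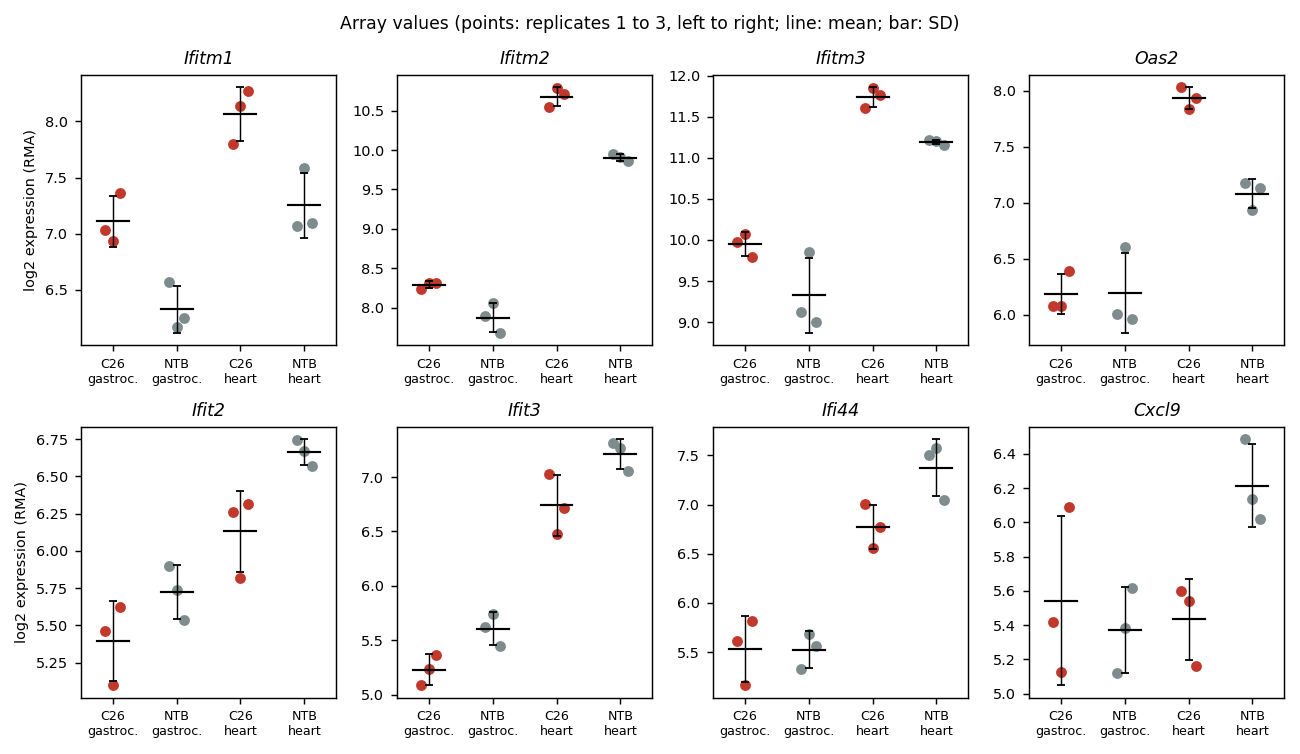
Array values of 8 members in C26 gastrocnemius, NTB gastrocnemius, C26 heart and NTB heart, in log2 expression, with each panel on its own axis. Points are replicates 1 to 3 from left to right, long lines are means and bars are SD. Ifitm1, Ifitm2 and Oas2 stand higher in C26 heart than in NTB heart, while Ifit2, Ifit3, Ifi44 and Cxcl9 stand lower there with an adjusted p between 0.0739 and 0.128.

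Some classical interferon targets lay below NTB in every C26 heart, though none was called in the main fit. The share of members that did so was near that of all genes, as given below. Cxcl9 measured 5.60, 5.54 and 5.16 in C26 heart and 6.48, 6.14 and 6.02 in NTB heart. Ifi44, a GTP-binding antiviral protein, measured 7.002, 6.56 and 6.77 in C26 heart and 7.51, 7.58 and 7.05 in NTB heart. In both genes every C26 array was below every NTB array, with differences of -0.78 ± 0.22 (SE, adjusted p = 0.0739) and -0.60 ± 0.19 (adjusted p = 0.123).

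Ifit2 measured 6.26, 5.82 and 6.32 in C26 heart and 6.74, 6.67 and 6.57 in NTB heart. Ifit3 measured 7.03, 6.48 and 6.71 in C26 heart and 7.31, 7.27 and 7.06 in NTB heart. Again the groups did not overlap, though C26 heart 1 came close to NTB heart 3 in Ifit3. The differences were -0.53 ± 0.16 (SE, adjusted p = 0.118) for Ifit2 and -0.47 ± 0.15 (adjusted p = 0.128) for Ifit3. In all, 8 members had every C26 heart array above NTB (21.1%, against 14.2% of all genes) and 6 had every one below (15.8%, against 13.4%).

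These members were called lower under some settings. Without C26 gastrocnemius 3, which takes no part in the heart contrast but enters the shared spread, limma called 6 members in heart. They were the 3 above and, lower, Cxcl9 (adjusted p = 0.00786), Ifi44 (0.043) and Ifit2 (0.0462). That fit called 5.91% of all genes in heart, against 3.23% in the main fit. Fitted on the 6 heart arrays alone, 9 members were called, 5 higher and 4 lower. The added ones were Ifitm3 and Trim25, higher, and Cxcl9, Ifi44, Ifit2 and Ifit3, lower. Calls rose over all genes too, to 11.4% in the fit on heart arrays alone. Within 0.25 of 0 lay 26 of 38 changes, and the 95% interval lay within 1 log2 unit for 33.

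The signalling group had 0 of 5 calls in heart, and by limma 0 had an unadjusted p under 0.05. Irf7, the highest, measured 6.73, 6.36 and 6.47 in C26 and 6.62, 6.22 and 6.19 in NTB (0.17 ± 0.20, SE, adjusted p = 0.870). Stat2, the lowest, measured 7.38, 7.13 and 7.12 in C26 and 7.37, 7.31 and 7.03 in NTB (-0.03 ± 0.13, adjusted p = 0.979). Both overlapped. Irf1 was at -0.02, Irf8 at 0.15 and Irf9 at 0.17.

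Usp18 was the highest of the Ifit group in heart at 0.01 ± 0.13 (SE, adjusted p = 0.994), with 7.45, 7.25 and 7.20 in C26 and 7.35, 7.38 and 7.14 in NTB. Ifit1 was at -0.02. The groups overlapped for both. Mx1 (0.17), Mx2 (-0.01), Eif2ak2 (-0.13), Rsad2 (-0.16), Bst2 (-0.21), Ifi35 (-0.09) and Xaf1 (-0.26) were not called.

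RNA sensors had 0 of 6 calls in heart, and by limma 0 with an unadjusted p under 0.05. Trim25 measured 7.90, 7.72 and 8.04 in C26 and 7.52, 7.56 and 7.56 in NTB, so that its arrays did not overlap (0.34 ± 0.21, SE, adjusted p = 0.629). Parp9, the lowest, measured 7.28, 7.24 and 7.25 in C26 and 7.51, 7.31 and 7.24 in NTB (-0.10 ± 0.12, adjusted p = 0.890). Ifih1 (-0.04), Ddx58 (0.03), Parp14 (0.02) and Dtx3l (0.01) lay near 0.

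The immunoproteasome and peptide transport group had 0 of 5 calls in heart, with 0 unadjusted p under 0.05 by limma. Psmb9, the highest, measured 7.75, 7.51 and 7.70 in C26 and 7.71, 7.59 and 7.57 in NTB (0.03 ± 0.12, SE, adjusted p = 0.976). Tap1, the lowest, measured 7.15, 7.05 and 6.95 in C26 and 7.57, 7.28 and 7.07 in NTB (-0.25 ± 0.15, adjusted p = 0.573). Both overlapped between the groups. Psmb8 was at -0.17, Psmb10 at -0.12 and Tap2 at -0.05. Cxcl10 measured 4.77, 4.91 and 4.68 in C26 and 4.86, 4.68 and 4.54 in NTB (0.09 ± 0.12, adjusted p = 0.899).

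The tumour effects in the 2 muscles were then set against each other in the same fit, as the change in gastrocnemius minus that in heart. Oas2 was the only member called, at -0.87 ± 0.23 (SE, adjusted p = 0.0499), where 3.98% of all genes were called, 1.97% higher and 2.01% lower. In gastrocnemius it measured 6.08, 6.08 and 6.39 in C26 and 6.01, 6.60 and 5.96 in NTB, which overlapped, beside the separated heart values given above. The call stood at the threshold and held in 2 of 12 fits without an array, with adjusted p up to 0.146. Cxcl9 had the largest difference at 0.95 ± 0.31 (adjusted p = 0.118). Ifitm1 differed by -0.03 with a 95% interval of -0.57 to 0.50, Ifitm2 by -0.36 (-0.72 to 0.00) and Ifitm3 by 0.07 (-0.46 to 0.60), so that moderate differences between the muscles were within the error. For 34 of 38 members the interval stayed within 1 log2 unit.

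**Figure D3:**
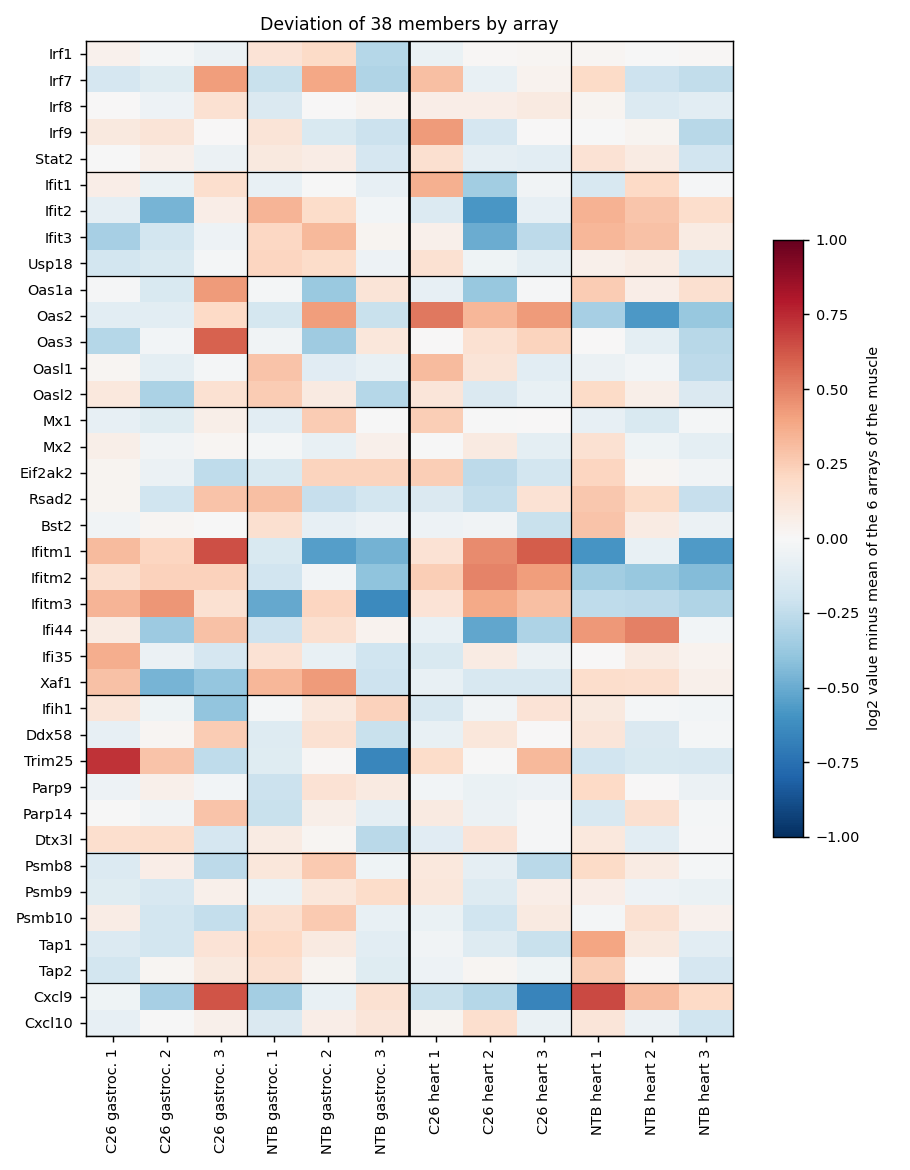
Each of 38 members (rows, by role group) on each of 12 arrays (columns), as the log2 value minus the gene's mean over the 6 arrays of its muscle. Red is higher and blue is lower. The Ifitm1 and Ifitm2 rows separate C26 from NTB in both muscles, and Ifitm3 and Oas2 do so in heart and overlap in gastrocnemius. In heart, C26 lay wholly above NTB in 8 of 38 rows and wholly below in 6, against 14.2% and 13.4% of all genes. Ifit2, Ifit3, Ifi44 and Cxcl9 are among those below. In gastrocnemius, 2 rows lay wholly above and 1, Ifit3, wholly below, against 9.99% and 9.43% of all genes. Most rows show no block of colour by group.

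Over all members, no array's median deviation exceeded 0.11 in size. The median deviation of the 38 members from their muscle mean was 0.00, -0.06 and 0.06 on the C26 gastrocnemius arrays and -0.02, 0.08 and -0.08 on the NTB gastrocnemius arrays. It was 0.04, -0.05 and -0.03 on the C26 heart arrays and 0.11, 0.01 and -0.06 on the NTB heart arrays. The groups overlapped in both muscles.

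Members varied together weakly among arrays of a group. With group means removed, the median correlation over 703 pairs of members was 0.16, beside 0.02 over all pairs of genes. Pairs above 0.5 made up 18.8% of member pairs and 16.1% of all gene pairs. The closest pair was Irf7 and Oas2 (r = 0.91), and Tap1 and Tap2, neighbours in the same complex, reached 0.86. These are descriptions over 12 arrays that share their group's RNA handling, and no test was made.

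Levels of the members also differed between the muscles without a tumour. In NTB mice, 27 of 38 members (71.1%) were higher in heart than in gastrocnemius and 0 were lower, where 40.6% of all genes were called, 24.8% higher and 15.8% lower. The median difference was 0.69, beside 0.05 over all genes. In 28 members (73.7%) all 3 NTB heart arrays lay above all 3 NTB gastrocnemius arrays, against 31.4% of all genes, and in 0 members all lay below, against 21.7%. Hearts and gastrocnemius came from different cohorts, so tissue and cohort cannot be told apart.

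Ifitm2 differed most in NTB mice, with 9.94, 9.91 and 9.86 in heart and 7.89, 8.06 and 7.68 in gastrocnemius. The difference was 2.03 ± 0.12 (SE), or 4.08-fold (adjusted p = 2.99e-09). Ifitm3 was 3.64-fold higher in NTB heart (1.86 ± 0.17, adjusted p = 4.86e-07) and Ifi44 3.61-fold higher (1.85 ± 0.19, adjusted p = 1.13e-06). Each of these 3 genes had heart and gastrocnemius arrays far apart. Ifitm1 was 0.93 ± 0.18 higher in NTB heart (adjusted p = 0.000559).

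The Ifit genes and Usp18 were higher in NTB heart in 4 of 4 cases. Ifit3 measured 7.31, 7.27 and 7.06 in NTB heart and 5.63, 5.74 and 5.45 in NTB gastrocnemius, a difference of 1.61 ± 0.15 (SE, adjusted p = 4.64e-07). Ifit1 stood 1.21, Ifit2 0.94 and Usp18 0.91 log2 units higher in heart. All 6 RNA sensing genes were also higher in NTB heart, led by Ddx58 at 1.52 ± 0.14 (adjusted p = 3.25e-07), with 8.09, 7.83 and 7.95 in heart and 6.37, 6.66 and 6.28 in gastrocnemius. No array of the muscles overlapped in either gene.

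The remaining groups were split. Of the signalling group, 3 of 5 were higher in NTB heart (Irf9 0.56, Irf1 0.47 and Stat2 0.41), while Irf7 (0.34) and Irf8 (-0.11) were not called. In the synthetase family Oasl2 (1.36), Oas2 (0.89) and Oas1a (0.47) were higher and Oas3 (-0.03) and Oasl1 (-0.21) were not called. Of the effectors 8 of 11 were higher, with Mx1, Mx2 and Bst2 not called. Psmb10 (0.99) and Tap1 (0.50) were higher, and Psmb8, Psmb9 and Tap2 were not called. Of the chemokines, Cxcl9 was higher in NTB heart (0.84) and Cxcl10 was not called (-0.10).

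**Figure D4:**
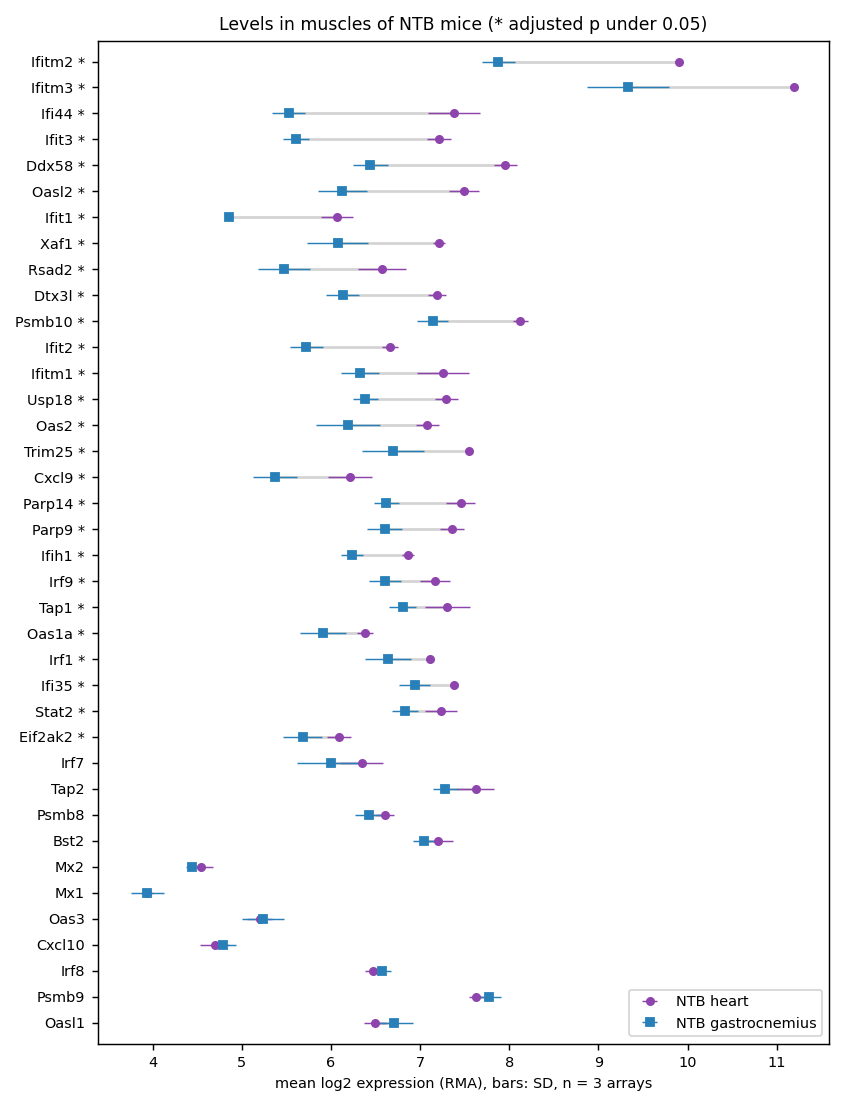
Mean log2 expression of 38 members in NTB heart (circles) and NTB gastrocnemius (squares), with SD bars over 3 arrays each, ordered by the difference between the muscles. An asterisk marks an adjusted p under 0.05, which 27 members reached, all higher in heart. Levels of different genes are read by different probes and are not comparable down the page.

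Marker genes of other cells moved with these groups. In NTB heart against NTB gastrocnemius, 8 of 9 endothelial markers were higher, with array means of 9.17 to 9.27 in heart and 8.04 to 8.32 in gastrocnemius. Macrophage markers had 5 of 10 higher, with means of 6.68 to 6.83 in heart and 6.06 to 6.37 in gastrocnemius. Red cell markers had 5 of 5 higher, and fibroblast markers 4 of 8 higher and 2 lower. Dendritic cell markers had 1 of 7 higher, and no neutrophil, B cell or T and NK cell marker was called. Over all genes 24.8% were higher and 15.8% lower. In whole muscle, more cells of a type and more RNA per cell cannot be told apart. The part of these cells in the members' levels was not tested.

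In heart, C26 mice had 5 of 10 macrophage and monocyte markers higher (Cd68 0.98, Lyz2 0.97, Itgam 0.76, Cd14 0.65 and Mrc1 1.39). The calls of Cd68 and Lyz2 held in 20 of 20 other settings, that of Itgam in 14 of 20, that of Mrc1 in 13 of 20 and that of Cd14 in 10 of 19. Mrc1 was lost without any single heart array, and without C26 gastrocnemius 3 the count was 7 of 10. The list's array means ran over 7.45 to 7.60 in C26 and 6.68 to 6.83 in NTB. Of 9 endothelial markers 1 was higher (Vwf 0.89), with means of 9.38 to 9.44 in C26 and 9.17 to 9.27 in NTB. Endothelial changes went both ways, 6 above 0 and 3 below (Kdr -0.28, Cdh5 -0.24 and Emcn -0.07, none called). Of 8 neutrophil markers 1 was higher (Cxcr2 0.78), and of 8 fibroblast markers 1 was higher (Dpt 1.06). All 8 fibroblast changes were above 0, and 6 had an unadjusted p under 0.05 in limma. The fibroblast list means ran over 9.12 to 9.38 in C26 and 8.68 to 8.80 in NTB. None of the B cell (5), T and NK cell (12), dendritic cell (7, among them the members Bst2 and Irf8) or red cell (5) markers was called, with 1 red cell marker and none of the others at an unadjusted p under 0.05 in limma. Without C26 gastrocnemius 3, 2 endothelial and 2 neutrophil markers were called higher in heart. Among all genes 2.14% were called higher in heart and 1.09% lower, and 5.91% were called in either direction without that array.

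In gastrocnemius, C26 mice had Cd68 higher (0.74) as 1 of 10 macrophage markers, with list means of 5.94 to 6.73 in C26 and 6.06 to 6.37 in NTB. Of 9 endothelial markers 3 were higher (Tek 0.58, Pecam1 0.55 and Vwf 0.48), with means of 8.22 to 8.52 in C26 and 8.04 to 8.32 in NTB. The calls of Tek and Vwf each held in 15 of 20 other settings, and without C26 gastrocnemius 3 the count was 4. Kdr, of the same list, went the other way (-0.41, limma adjusted p = 0.0632), with every C26 array below NTB. The other 8 endothelial changes were above 0. Fibroblast markers had 4 of 8 lower, among them Col1a1 at -2.54, and red cell markers 3 of 5 higher. Among all genes 6.48% were called higher in gastrocnemius and 5.49% lower, and 17.4% in either direction without C26 gastrocnemius 3. None of the neutrophil, dendritic, B or T and NK cell markers was called, with 1 neutrophil marker at an unadjusted p under 0.05. The part of these cells in the Ifitm and Oas2 changes was not tested.

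The other genes of the pathway were read from a list of 37, of which 35 had a row. Of these, 3 were called higher and 1 lower in gastrocnemius, and 2 higher and 1 lower in heart. Without C26 gastrocnemius 3 these counts were 6 higher and 1 lower in gastrocnemius, and 3 higher and 1 lower in heart. No interferon gene itself was called in either muscle, where limma gave 0 of 7 with an unadjusted p under 0.05.

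Ifngr2, the signalling chain of the interferon gamma receptor, was lower in C26 mice in both muscles. It measured 9.99, 9.93 and 9.56 in C26 gastrocnemius and 10.55, 10.66 and 10.36 in NTB gastrocnemius (-0.70 ± 0.13, SE, adjusted p = 0.00162). In heart it measured 11.15, 11.10 and 11.18 in C26 and 11.85, 11.76 and 11.94 in NTB (-0.71 ± 0.13, adjusted p = 0.00436). The groups did not overlap in either muscle, and both calls held in 20 of 20 other settings. The other 5 receptor chains were not called.

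Socs3, an inhibitor of cytokine signalling that interleukin-6 also induces, was higher in C26 mice. It measured 7.74, 8.15 and 7.56 in C26 gastrocnemius and 7.20, 6.83 and 6.48 in NTB gastrocnemius (0.98 ± 0.19, SE, adjusted p = 0.00227). In heart it measured 8.13, 7.73 and 7.82 in C26 and 6.82, 6.75 and 6.88 in NTB (1.07 ± 0.19, adjusted p = 0.0035). C26 arrays lay above NTB arrays in both. Averaging all rows of Socs3 gave 0.50 in heart, which was not called (adjusted p = 0.125).

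The adaptor Tmem173 (STING), which passes on the signal of cytosolic DNA, measured 7.37, 7.17 and 7.35 in C26 gastrocnemius and 6.13, 6.72 and 5.998 in NTB gastrocnemius, a rise of 1.02 ± 0.19 (SE, adjusted p = 0.00219). In heart it measured 8.41, 7.79 and 7.88 in C26 and 7.36, 7.27 and 7.05 in NTB, a rise of 0.80 ± 0.19 (adjusted p = 0.0319). The groups were apart in both muscles, but the heart call was lost in 6 of 20 other settings, among them those without C26 heart 1 or 3 or any NTB heart, with adjusted p up to 0.186. The kinase Tbk1 rose in gastrocnemius (0.60 ± 0.15, adjusted p = 0.0134). Leaving out C26 gastrocnemius 2 or NTB gastrocnemius 1 or 3 ended this call, with adjusted p up to 0.12 over all settings.

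Of 18 genes of antigen presentation that are no members, 2 were higher and 1 lower in C26 gastrocnemius, and 0 were called in heart, where 3 had an unadjusted p under 0.05 in limma. Without C26 gastrocnemius 3, 3 were higher and 2 lower in gastrocnemius and 1 was higher in heart. The shares of all genes called were 12% in gastrocnemius and 3.23% in heart, and 17.4% and 5.91% without that array. The proteasome activator subunit Psme1, itself induced by interferon gamma, fell by 0.90 in C26 gastrocnemius (adjusted p = 0.00103), with 8.81, 8.32 and 8.15 in C26 and 9.42, 9.44 and 9.11 in NTB. The groups did not overlap. The chaperones Canx (0.54, adjusted p = 0.00249) and Calr (0.34, adjusted p = 0.0395) rose there, the call of Calr being lost in 12 of 20 other settings.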

How the data were processed

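Transcript abundance was measured on 12 1-colour Affymetrix MoGene-1_0-st-v1 arrays, 3 in each of 4 groups, from 250 ng of total RNA each, per the labels' protocols. The deposited values used are log2 expression per transcript, made by the authors with RMA. RMA, GCOS, Partek and the build mm8 are named without versions in the submitters' processing notes, and joint normalization of the arrays is not given in the sources used here. Array medians ran over 5.93 to 6.09, and the number of arrays limits the precision.

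Symbols and accessions of the deposited annotation stop after 7 characters. They were matched to the mouse gene table of GRCm38.p6, which named 21769 of 35556 transcripts and 19356 genes. The 12 value columns of the annotation table were not used, because their names are not the samples' titles. They were not assigned to arrays, so batches were not tested.

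Group means were fitted with limma 3.58.1 in R 4.3.3 over 12 arrays, with moderated variances that follow expression and no block. Tests were two-sided with Benjamini-Hochberg adjustment over 19356 genes and a call at an adjusted p under 0.05. With 8 residual and about 6.85 prior degrees of freedom, p-values measure the spread between these arrays. The fit was checked on simulated data. Members given with all arrays are those called, those whose groups did not overlap with a difference of at least 0.5, and the highest and lowest of each role group. From other lists at most 6 called genes are named. The members and lists were chosen with earlier results of these data known. The values of 1 gene of the pathway list are not reported here.

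Same-numbered C26 and NTB arrays deviated together in gastrocnemius (correlations 0.311, 0.332 and 0.497), so a replicate block was run as an alternative. The main fit has no block and leaves any such pairing out. Deviations within a group sum to 0, so these correlations are not independent. Whether the replicate numbers mark pairs was not tested further. In heart the correlations were 0.092, -0.041 and 0.016. Alternatives were quantile normalization, centring, a filter on dim transcripts (group mean over 6.42), no variance trend, each muscle alone, a replicate block, other rows of a gene, all transcripts in the adjustment and each array left out.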

Additional observations from a re-analysis of the deposited data

Results flagged for a closer look

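The tumour effect on Oas2 was called different between the muscles at the threshold. The change in gastrocnemius minus that in heart was -0.866 (log2, SE 0.23, limma adjusted p = 0.0499). The call held in 2 of 12 fits without an array, with limma adjusted p up to 0.146. It was lost with centred columns and with all transcripts in the adjustment. All 3 C26 hearts were above all 3 NTB hearts, while the gastrocnemius groups overlapped. Because the 2 muscles came from different cohorts, muscle and cohort cannot be told apart.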

How the results depend on the processing

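The number of members called in gastrocnemius was 3, and it was 1 with columns centred on their medians, 1 with each muscle fitted alone, 4 with the replicate block, and 1 to 4 over the fits that left out an array. Ifitm1 was called in all 21 other settings, its second row included. In heart the number was 3, against 9 with each muscle fitted alone, 5 with the replicate block (Ifitm3 added higher, Cxcl9 lower) and 2 to 6 without an array. Ifitm2 was called in heart in all 20 other settings. The difference between muscles had 1 call, against 0 with centred columns, 0 with all transcripts in the adjustment, 2 with the replicate block (Oas2 and Cxcl9, adjusted p = 0.0138) and 0 to 1 without an array. Between NTB muscles 23 to 28 members were called without an array. No paired analysis was possible for the NTB muscles, because heart and gastrocnemius came from different cohorts. The block changed no other call. Without an array, the median member change ran from -0.059 to 0.047 in gastrocnemius and from -0.058 to 0.024 in heart.

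Signs turned only in genes that were not called, and those listed here are the members shown with all arrays of that muscle. Usp18 in heart was -0.003 with quantile normalization, -0.001 with centred columns and -0.065 to 0.061 without an array. Without an array, the ranges in gastrocnemius were -0.176 to 0.062 for Irf1, -0.062 to 0.375 for Oas3, -0.138 to 0.06 for Oasl1, -0.117 to 0.034 for Tap2, -0.101 to 0.381 for Cxcl9 and -0.105 to 0.028 for Cxcl10, and in heart -0.131 to 0.038 for Stat2 and -0.018 to 0.105 for Psmb9. The cause of these changes was not tested.

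Over all genes, calls in gastrocnemius numbered 2316, against 909 with each muscle alone and 3180 with the block. Calls in heart numbered 625, against 2205 with each muscle alone, 1012 with the block, 351 with all transcripts in the adjustment and 332 to 1144 without an array. Calls of the difference numbered 771, against 1371 with the block, 459 with all transcripts in the adjustment and 460 to 1610 without an array. With 3 arrays a group, changes of the size seen in most members could not be told from 0. The filter on dim transcripts kept 30 of 38 members and dropped Ifit1, Oas1a, Oas3, Mx1, Mx2, Eif2ak2, Cxcl9 and Cxcl10.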

Other observations

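Relatives of the members were looked up after values were seen, so they are given as values with no test. All 3 C26 arrays lay above all 3 NTB arrays for 9.99% of all genes in gastrocnemius and 14.2% in heart. They lay below for 9.43% and 13.4%. Genes of the p200 family encode DNA-binding proteins of the nucleus and cytosol that interferon induces. Ifi205 measured 7.29, 7.999 and 8.10 in C26 gastrocnemius and 6.497, 6.10 and 5.90 in NTB gastrocnemius. In heart it measured 10.03, 10.53 and 10.47 in C26 and 8.44, 8.37 and 8.74 in NTB. Every C26 array of Ifi205 lay above every NTB array in both muscles, by 1.63 and 1.83 on average (log2).

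Ifi207 measured 6.98, 7.50 and 6.40 in C26 gastrocnemius and 6.17, 5.68 and 5.56 in NTB gastrocnemius, and 9.87, 10.01 and 10.03 in C26 heart and 8.27, 8.44 and 8.72 in NTB heart. Ifi204 was 0.83 higher in C26 gastrocnemius and 1.09 higher in C26 heart, and Ifi202b was 0.75 and 1.42 higher. Again no array of the groups overlapped. Ifi203 went the other way in heart, with 8.87, 8.63 and 8.91 in C26 and 9.60, 9.46 and 9.58 in NTB, and it overlapped in gastrocnemius (-0.06). The groups overlapped in both muscles for Ifi208 (0.22 in gastrocnemius and -0.13 in heart), Ifi209 (0.33 and 0.20) and Ifi213 (0.23 and 0.02), so that only some of the 8 family genes looked up stood apart. Genes of this family are close copies of each other and of strain-dependent number, and how far their probes read each other was not tested. Macrophage markers were higher in C26 heart as well, and their part in these values was not tested.

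Ifit3b, a near copy of Ifit3, measured 3.92, 3.25 and 3.63 in C26 gastrocnemius and 4.85, 4.49 and 4.60 in NTB gastrocnemius, a difference of -1.04. All C26 arrays lay below NTB there, and the heart arrays overlapped (-0.06). Of the Ifitm genes that are no members, Ifitm5 measured 6.38, 6.48 and 6.42 in C26 gastrocnemius and 6.16, 5.97 and 6.05 in NTB gastrocnemius, and its heart arrays overlapped (0.36). Ifitm6 (-0.01 in gastrocnemius and -0.02 in heart), Ifitm7 (0.15 and 0.03) and Ifitm10 (-0.07 and 0.06) overlapped in both muscles. So did Ifit1bl2 and Oas1b, Oas1c, Oas1d, Oas1e, Oas1f, Oas1g and Oas1h, with differences of -0.04 to 0.21 in gastrocnemius and -0.10 to 0.22 in heart.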
